A study of Mus musculus with 2 samples.

Results

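The miR-193 and miR-365 genes of the mouse form 2 small clusters, each with a miR-193 hairpin and a miR-365 hairpin on the same strand. They were followed here in E18.5 fetal liver (strain B6/129), in mice labelled Ago2ADH, whose Argonaute 2 is catalytically inactive, and in wild type mice. Total RNA of 19 to 30 nt was sequenced in 1 library of each genotype. The differences given here therefore lack a replicate check, and none was tested. The labels do not say whether a library came from 1 animal or from pooled animals. The group was chosen by the read counts of these same libraries, with the higher count of miR-193-3p in Ago2ADH already known. Members were all sequences of the deposited table that its authors classed as miRNA and named mmu-mir-193, mmu-mir-193b or mmu-mir-365, with any locus or arm suffix. The rule found 63 of the 12128 miRNA sequences, with 686 reads in Ago2ADH and 616 reads in wild type.

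A miRNA hairpin is cut by Drosha and Dicer into a duplex of a 5p and a 3p strand. An Argonaute protein keeps 1 strand as guide and discards the other. Argonaute 2 is the mammalian Argonaute known for efficient slicing, and slicing can help to discard a passenger strand when the duplex is well paired in its middle. The 3p strands of miR-193 and miR-193b share a seed, the bases at the 5′ end that choose targets, and have been studied as growth-restraining miRNAs in human cancer cells. The miR-193b and miR-365 cluster has been studied for its part in brown fat cell differentiation in mouse cells.

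The mature sequences show which strands can be told apart by sequencing. They are given 5′ to 3′ from RefSeq (GRCm38.p6), with the seed, bases 2 to 8, in capitals.
miR-193a-3p: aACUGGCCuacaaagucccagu
miR-193b-3p: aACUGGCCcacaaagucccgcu
miR-193a-5p: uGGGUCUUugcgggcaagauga
miR-193b-5p: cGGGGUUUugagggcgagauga
miR-365-3p: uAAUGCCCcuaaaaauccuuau
miR-365-2-5p: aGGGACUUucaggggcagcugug
miR-365-1-5p: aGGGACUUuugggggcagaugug

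The miRNA named miR-193 in the deposited table is miR-193a of RefSeq. The 3p strands of miR-193a and miR-193b had 19 of 22 bases in common and differed by U9C, A20G and G21C, with the miR-193a base first and positions counted from the 5′ end. Their seed was found in 2 mature miRNAs of the RefSeq table, these strands themselves. The 5p strands of the same hairpins had 17 of 22 bases in common and differed by U1C and U5G, among others, so their seeds were not the same. The miR-365-3p strand was identical at both loci, and its reads cannot be assigned to either. The miR-365 5p strands shared a seed and differed by C10U, A11G and C19A, with the miR-365-2 base first, so reads that cover those bases tell the loci apart.

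The first cluster lies on the plus strand of chromosome 11 (GRCm38), with Mir193a at 79711969 to 79712034 and Mir365-2 at 79726400 to 79726511. A gap of 14365 nt separates them. Neither hairpin overlaps another gene annotated by GENCODE release M21, and the noncoding Gm11205 lies 6.55 kb before Mir193a. The protein-coding gene Rab11fip4, whose product binds Rab11, ends 13.9 kb before Mir193a. The second cluster lies on the plus strand of chromosome 16, with Mir193b at 13449523 to 13449601 and Mir365-1 at 13453840 to 13453926, and the gap there is 4238 nt. Both of these hairpins lie within introns of Gm15738, a noncoding RNA annotated on the opposite strand. The protein-coding gene Mrtfb, a coactivator of serum response factor, ends 32.0 kb before Mir193b.

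Because the results turn on the arms of miR-193 and miR-193b, their hairpins are shown whole, with the mature 5p and 3p strands in capitals.
Mir193a: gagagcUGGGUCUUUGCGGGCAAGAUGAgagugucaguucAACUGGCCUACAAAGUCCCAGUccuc
Mir193b: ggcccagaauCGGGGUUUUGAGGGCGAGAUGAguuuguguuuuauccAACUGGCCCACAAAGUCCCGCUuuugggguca

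The Ago2ADH library held 7046197 reads, of which 2811227 were miRNA reads, and the wild type library held 7599870 reads, of which 2808232 were miRNA reads. Levels are given as reads per 1000000 miRNA reads (RPM), on which scale 3 reads correspond to 1.07 RPM in either library. Eif2c2, the older symbol of Ago2, had 318 mRNA fragments in Ago2ADH and 229 in wild type, which does not check a label for an inactive protein. miR-451-5p, the miRNA made by Argonaute 2 slicing, had 4368 reads in Ago2ADH and 326796 in wild type. Among the 353 miRNA arms whose reads summed to 100 or more, the median log2 ratio of Ago2ADH to wild type was 0.15. Hepatocyte mRNA fragments, led by albumin (Alb), summed to 11603 RPM of all reads in Ago2ADH and 11074 in wild type. Fragments of 10 erythroid marker mRNAs summed to 1181 RPM of all reads in Ago2ADH and 1837 in wild type.

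The members were scarce miRNAs in both livers. All of them together made up 244 RPM in Ago2ADH (exact Poisson 95% interval 226 to 263) and 219 RPM in wild type (202 to 237). All intervals cover counting error only, since amplified reads without molecular identifiers are not independent molecules. In Ago2ADH, miR-193b-3p stood highest of them at 79.0 RPM (68.9 to 90.1), followed by miR-365-3p at 70.8 RPM (61.3 to 81.3). These intervals overlapped. The next were miR-193-3p at 45.5 RPM (37.99 to 54.1) and miR-193-5p at 39.8 RPM (32.8 to 47.9), which also overlapped each other and lay below the first pair.

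The order was another in wild type. There miR-365-3p stood highest at 96.5 RPM (85.4 to 109), above miR-193b-3p at 70.9 RPM (61.4 to 81.4). miR-193-5p followed at 27.4 RPM (21.6 to 34.3), and miR-193-3p, at 9.61 RPM (6.34 to 14.0), lay below it. The 5p arms of miR-365 and miR-193b had 25 reads or fewer in either library. miR-365-2-5p was at 6.05 RPM in Ago2ADH and 8.90 RPM in wild type, miR-193b-5p at 1.42 and 4.27 RPM in Ago2ADH and wild type, and miR-365-1-5p at 1.42 and 1.78 RPM in Ago2ADH and wild type. Among the 627 arms with any read, miR-193-3p ranked 285th in Ago2ADH and 383rd in wild type, while miR-193b-3p ranked 253rd in both.

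**Figure D1:**
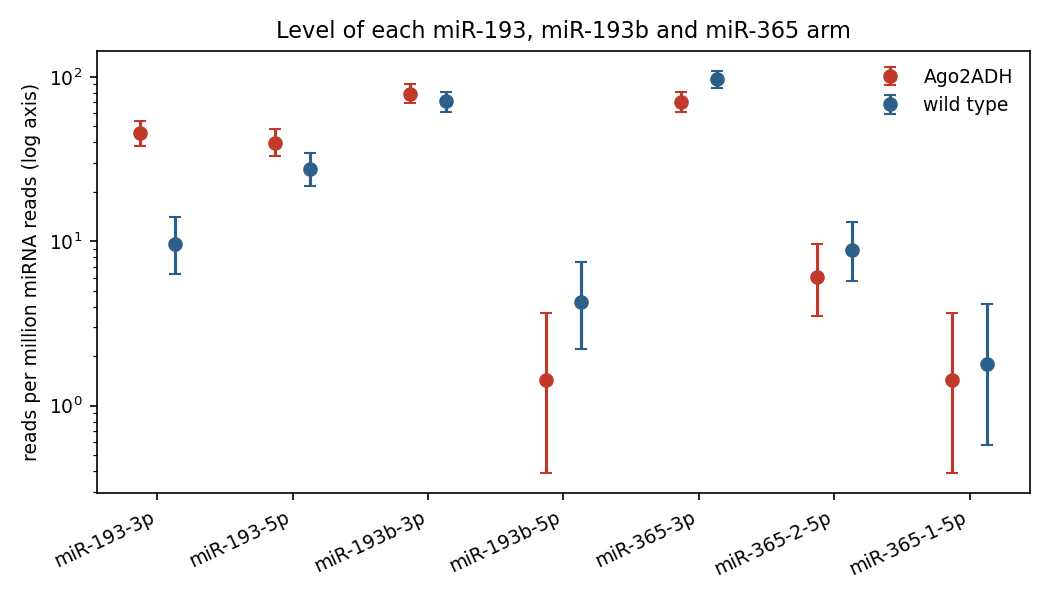
Level in RPM of miRNA reads (log axis) of each miR-193, miR-193b and miR-365 arm in Ago2ADH (red) and wild type (blue), with exact Poisson 95% intervals of 1 library per genotype. The intervals of miR-193-3p are apart, at 45.5 RPM in Ago2ADH and 9.61 RPM in wild type, while those of miR-193b-3p overlap.

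Of the 6 member arms, 4 had the 100 reads that the size rule asks for. By that rule an arm was called higher or lower when its ratio was at least 2 or at most 0.5 and its exact conditional binomial interval excluded 1. miR-193-3p was the member that rose, with 128 reads in Ago2ADH and 27 reads in wild type, a 4.74-fold difference (95% interval 3.11 to 7.46) and a log2 ratio that was 2.24 (1.64 to 2.90). Over all arms tested, 5.67% were called higher and 0.85% lower. Since the members were picked with this rise known, the call of 1 in 4 is a description and supports nothing. Ordered by log2 ratio, miR-193-3p was the 3rd highest of the 353 arms.

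The other strand of the same hairpin differed less. miR-193-5p had 112 reads in Ago2ADH and 77 reads in wild type, giving a log2 ratio of 0.54 (0.11 to 0.98) that did not meet the size rule. The interval held 0 with median-of-ratios scaling (-0.0432 to 0.83), TMM (-0.0344 to 0.83) and the total without the 10 most abundant arms (-0.0957 to 0.77). It was the 65th highest of the 353 ratios. An interval above 0, with no limit on the fold, was found for 48.4% of all arms tested, and an interval below 0 for 19.8%.

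miR-193b-3p, which carries the same seed as miR-193-3p, had 222 reads in Ago2ADH and 199 reads in wild type. Its log2 ratio of 0.16 (-0.13 to 0.44) lay near the median of all arms, and its sign turned to -0.0470 when the 10 most abundant arms of either library were left out of the total. miR-193b-5p had 4 reads in Ago2ADH and 12 in wild type, giving a log2 ratio of -1.59 with an interval of -3.68 to 0.14, too few reads for a call.

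miR-365-3p, the strand shared by both clusters, had 199 reads in Ago2ADH and 271 in wild type. Its log2 ratio was -0.45 (-0.72 to -0.18), which did not meet the size rule and was the 330th of the 353 when ordered from the highest. The 5p arm of miR-365 had 21 reads in Ago2ADH and 30 in wild type over both loci, giving a log2 ratio of -0.52 (-1.39 to 0.34), under the read minimum.

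**Figure D2:**
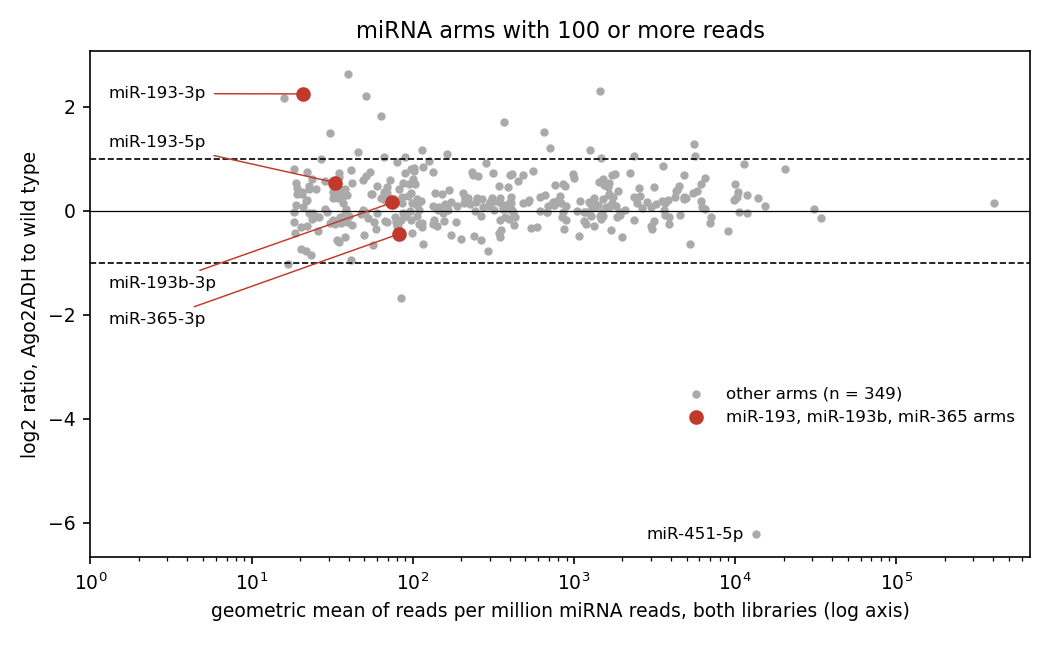
Log2 ratio of Ago2ADH to wild type against the geometric mean of the levels in both libraries (RPM, log axis) for 353 miRNA arms with 100 or more reads, with the 4 member arms in red and the 2-fold limits dashed. miR-193-3p lies above the upper limit at 2.24, miR-193-5p and miR-193b-3p lie within the cloud of other arms, and miR-365-3p lies on its lower side at -0.45.

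Differences between members do not depend on the scaling of the libraries, because both members of a pair are counted in the same reads. Intervals were computed for 11 such differences, with no p-value and no adjustment. The log2 ratio of miR-193-3p exceeded that of miR-193b-3p by 2.07 (1.41 to 2.72) and that of miR-365-3p by 2.67 (2.02 to 3.32), with 0.5 added to each count. miR-193b-3p exceeded miR-365-3p by 0.60 (0.22 to 0.98). Counting all reads of the strands that share a seed, whatever their start, miR-193-3p was thus 36.6% of both 3p strands in Ago2ADH (exact 95% interval 31.5 to 41.9) and 11.9% in wild type (8.02 to 16.9). Both strands together had 350 reads in Ago2ADH and 226 in wild type, giving a log2 ratio of 0.63. All values here that include miR-193-3p reuse the counts by which the group was chosen, so they are descriptions and add no support.

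Within the chromosome 11 cluster the neighbours were set side by side, although the placeable miR-365 reads were too few for a call. miR-365-2-5p, the strand of that cluster's miR-365 that can be placed, had 17 reads in Ago2ADH and 25 in wild type, giving a log2 ratio of -0.56 (-1.54 to 0.39). The difference from miR-193-3p was 2.77 (1.71 to 3.83) and that from miR-193-5p was 1.08 (0.11 to 2.05). The 5p strand from chromosome 16, miR-365-1-5p, had 4 reads in Ago2ADH and 5 in wild type. Reads from locus 1 thus made up 19.0% of the assignable miR-365 5p reads in Ago2ADH (5.45 to 41.9) and 16.7% in wild type (5.64 to 34.7). The shares overlapped widely, so a shift between the loci was not detectable at this depth. All reads that can be placed summed on chromosome 11 to 257 in Ago2ADH and 129 in wild type (log2 ratio 0.99, interval 0.68 to 1.31). Of the chromosome 11 reads, 128 in Ago2ADH and 27 in wild type were of miR-193-3p, the strand known beforehand to be higher. On chromosome 16 the placed reads summed to 230 in Ago2ADH and 216 in wild type (0.09, interval -0.19 to 0.36). Neither sum holds the shared miR-365-3p reads, 199 in Ago2ADH and 271 in wild type.

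By the rule of nearest log2 ratio, the arms most like miR-193-3p were miR-141-3p at 2.21, miR-486-3p at 2.30 and miR-33-5p at 2.16. This is a likeness over 2 libraries. miR-141-3p belongs to the epithelial miR-200 family, miR-486 is erythroid, and miR-33 lies in an intron of a sterol regulatory gene. miR-193-5p was nearest to miR-135a-5p (0.54), miR-669c-5p (0.54) and miR-127-5p (0.55). miR-193b-3p was nearest to miR-145-5p (0.16), miR-9-5p (0.16) and miR-351-5p (0.16). miR-365-3p was nearest to miR-15b-3p (-0.44), miR-449a-5p (-0.44) and miR-374-5p (-0.44).

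The share of each strand was compared next, within each library and so without scaling. For miR-193, reads of the 3p strand were 53.3% of the hairpin's reads in Ago2ADH (46.8 to 59.8) and 26.0% in wild type (17.9 to 35.5). The larger strand was thus 3p by a small margin in Ago2ADH and 5p in wild type, and the log2 odds ratio of 3p was 1.69 (0.96 to 2.41). For miR-193b the 3p strand was 98.2% of reads in Ago2ADH (95.5 to 99.5) and 94.3% in wild type (90.3 to 97.0), a log2 odds ratio of 1.63 (0.05 to 3.21). With reads of 20 to 24 nt it was 1.57 with an interval that held 0 (-0.0314 to 3.16), and with distinct sequences 0.24 (-2.08 to 2.57). The miR-193b value rests on 4 reads of the 5p strand in Ago2ADH and 12 in wild type. For miR-365 the 3p strand was 90.5% in Ago2ADH (85.8 to 94.0) and 90.0% in wild type (86.1 to 93.2), a log2 odds ratio of 0.06 (-0.78 to 0.90).

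**Figure D3:**
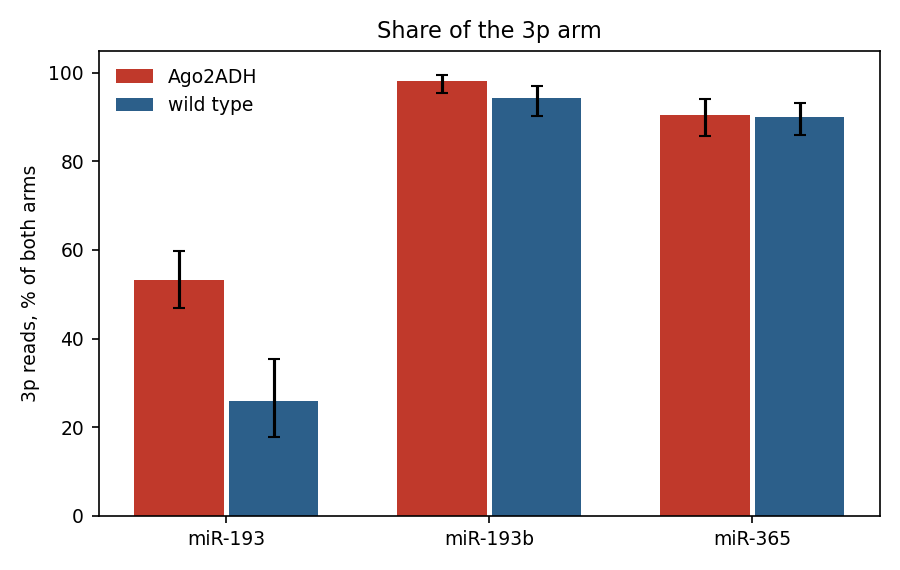
Reads of the 3p strand as a percentage of the reads of both strands for miR-193, miR-193b and miR-365, in Ago2ADH (red, left) and wild type (blue, right), with exact binomial 95% intervals. The bars of miR-193 stand at 53.3% in Ago2ADH and 26.0% in wild type, and those of miR-365 at 90.5% and 90.0% in Ago2ADH and wild type.

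The background was 215 hairpin names that reached 200 reads and had some on either strand. There the odds of the minor strand, the strand with fewer reads over both libraries, had an interval above 0 for 17.2% and below 0 for 21.9%. The minor strand is 3p for miR-193 and 5p for miR-193b and miR-365. A change of the larger strand between the libraries was not limited to miR-193, and it went in either direction. For miR-299 the 3p share was 54.4% in Ago2ADH and 26.98% in wild type. For miR-455 it was 40.7% in Ago2ADH and 61.6% in wild type, and for miR-540 35.3% in Ago2ADH and 57.1% in wild type. In odds of the minor strand miR-193 ranked 15th from the highest of the 215, and miR-193b ranked 14th from the lowest, a rank that rests on the few 5p reads given above. The median share of the minor strand over these names was 2% in Ago2ADH and 2.30% in wild type, far below the 53.3% in Ago2ADH and 26.0% in wild type of miR-193. These shares come from the same counts by which the members were picked.

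Folded by RNAfold, the Mir193a and Mir193b hairpins each paired 18 of 22 bases of both strands. In neither of them were bases 10 and 11 of a mature strand both paired. The Mir365-2 strands had no such pair either, with 19 of 23 paired bases for 5p and 17 of 22 for 3p, while in Mir365-1 both bases were paired on either strand. Over 1635 mature strands that could be placed on a RefSeq hairpin, 62.0% had both bases paired. The predicted fold is a description of the sequence, and its part in the shares was not tested.

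The reads of miR-193-3p had precise ends. In Ago2ADH 115 of 128 reads (89.8%, interval 83.3 to 94.5), and in wild type 26 of 27 (96.3%, 81.03 to 99.9), were the 22-nt RefSeq sequence itself. The rise was therefore that of the annotated strand, and the 5′ end, which sets the seed, was the RefSeq one in 94.5% of Ago2ADH and 96.3% of wild type reads. A further 5 reads in Ago2ADH, against 0 in wild type, were of 15 nt with 7 genome matches. Without them miR-193-3p had 123 reads in Ago2ADH and 27 in wild type, giving a log2 ratio of 2.19 (1.58 to 2.84).

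Ends of the other arms were likewise close in the libraries. The RefSeq sequence of miR-193-5p was 85.7% of its reads in Ago2ADH (77.8 to 91.6) and 79.2% in wild type (68.5 to 87.6). For miR-193b-3p it was 82.4% in Ago2ADH (76.8 to 87.2) and 80.9% in wild type (74.7 to 86.1). Reads of this strand that ran past the RefSeq end were 11.3% in Ago2ADH and 9.05% in wild type, mostly by 1 nt, whereas neither strand of miR-193 had such a read. For miR-365-3p the RefSeq sequence was 78.9% in Ago2ADH (72.6 to 84.3) and 83.03% in wild type (78.02 to 87.3), and reads past its end were 8.54% in Ago2ADH and 5.90% in wild type. In each case the intervals overlapped.

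**Figure D4:**
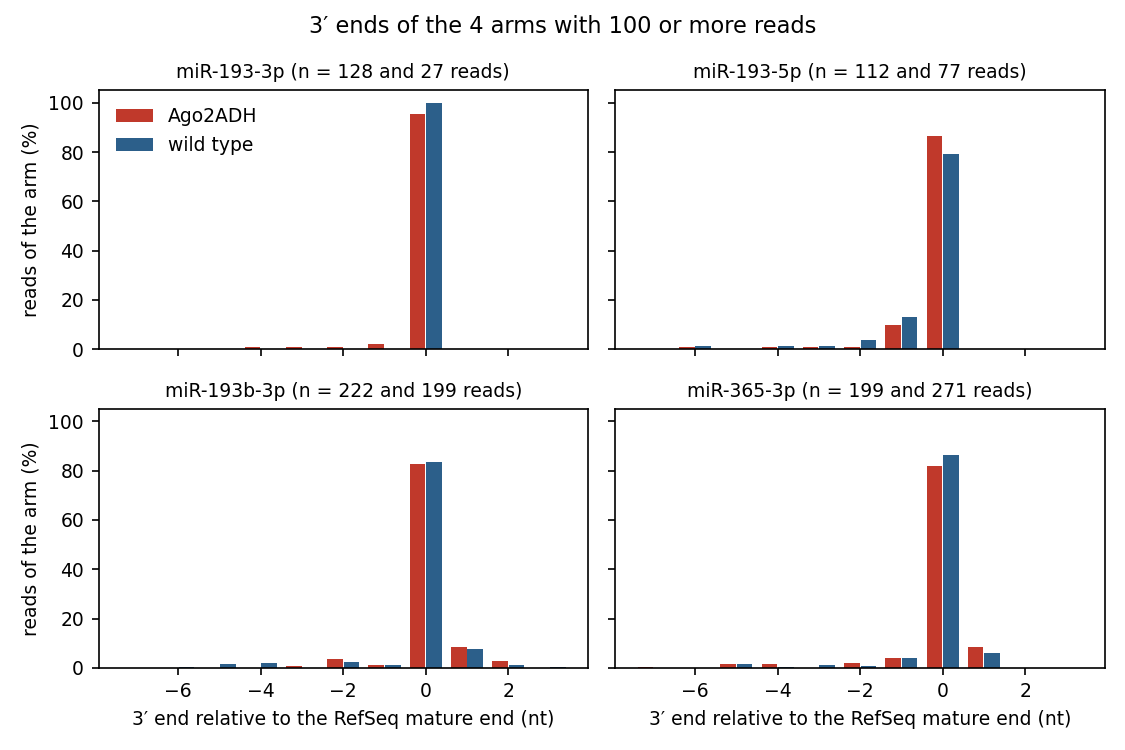
Percentage of the reads of 4 arms by their 3′ end relative to the end of the RefSeq mature strand (nt), in Ago2ADH (red, left) and wild type (blue, right). In each arm the RefSeq end holds most reads in both libraries, 95.3% in Ago2ADH and all 27 reads in wild type for miR-193-3p, and reads past it are seen for miR-193b-3p and miR-365-3p.

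The scarce 5p strand of miR-365-2 had a mixed 5′ end. Of its reads, 8 of 17 in Ago2ADH (47.1%, interval 23.0 to 72.2) and 18 of 25 in wild type (72.0%, 50.6 to 87.9) began 1 nt before the RefSeq start. A further 3 reads in Ago2ADH and 0 in wild type began 1 nt after it. A start moved by 1 nt gives another seed. The intervals overlapped, and the reads are few. Among the 4 arms with 100 or more reads, between 94.5% and 99.1% of reads in Ago2ADH, and between 95.9% and 98.7% in wild type, began at the RefSeq start.

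Read length followed from these ends. Reads of 20 to 24 nt made up 93.0% of miR-193-3p in Ago2ADH and 96.3% in wild type, 96.4% of miR-193-5p in Ago2ADH and 94.8% in wild type, 98.6% of miR-193b-3p in Ago2ADH and 94.97% in wild type, and 93.5% of miR-365-3p in Ago2ADH and 94.5% in wild type. Restricted to those lengths, miR-193-3p had a log2 ratio of 2.12 (1.503 to 2.80).

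Terminal transferases can lengthen a miRNA at its 3′ end by untemplated nucleotides. Such reads are outside the miRNA class of the deposited table, and added bases were not told apart from sequencing errors in the last base. With 1 added nucleotide they were 4.48% of miR-193-3p reads in Ago2ADH (1.66 to 9.49) and 0 of 27 in wild type, with an exact upper bound of 12.8%. The share was 8.94% of miR-193-5p in Ago2ADH and 9.41% in wild type, mostly U, with 9 of 11 such reads in Ago2ADH and 5 of 8 in wild type. For miR-193b-3p it was 8.26% in Ago2ADH and 8.29% in wild type, mostly A, with 17 of 20 in Ago2ADH and 13 of 18 in wild type. For miR-365-3p it was 5.69% in Ago2ADH and 4.24% in wild type. Over all miRNA reads the share was 13.2% in Ago2ADH and 12.8% in wild type. The Ago2ADH and wild type intervals overlapped for each of these 4 arms.

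The rise of miR-193-3p did not rest on the scaling. With totals of all reads, median-of-ratios, TMM, or the miRNA total without the 10 most abundant arms of either library, its log2 ratio ran from 2.04 to 2.35 and met the size rule each time. The same scalings gave 0.34 to 0.65 for miR-193-5p, -0.0470 to 0.27 for miR-193b-3p and -0.65 to -0.34 for miR-365-3p. Under none of them did these 3 arms meet the rule.

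**Figure D5:**
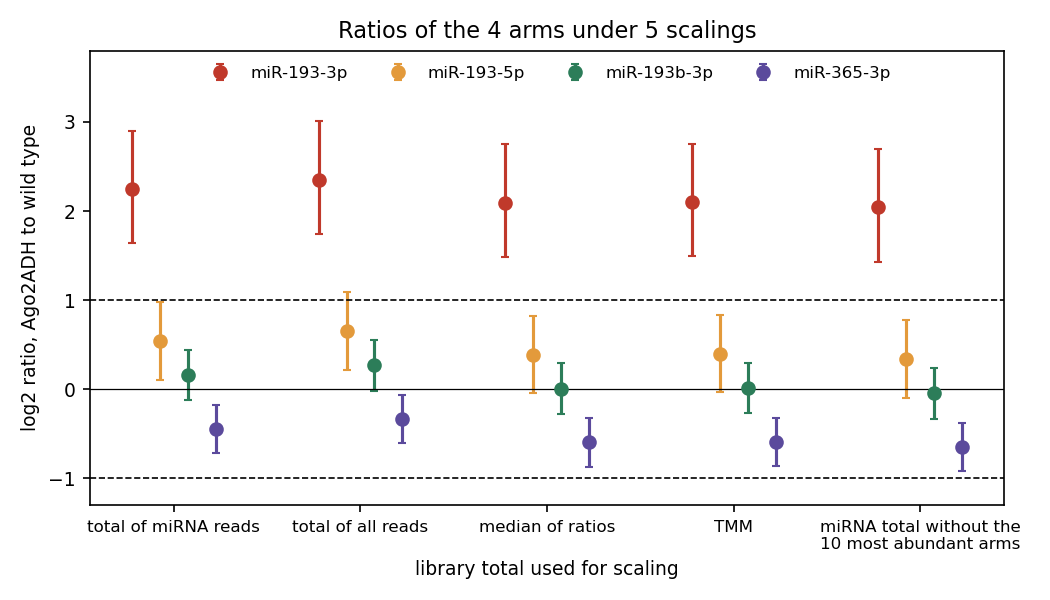
Log2 ratio of Ago2ADH to wild type with its 95% counting interval for the 4 member arms with 100 or more reads, under 5 ways to scale the libraries, with the 2-fold limits dashed. miR-193-3p stays above the upper limit, between 2.04 and 2.35, and the other arms stay between the limits.

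Known targets of these miRNAs were looked at through fragments of their mRNAs in the same table. Such fragments are short pieces, and their counts need not follow the mRNA level. Of 16 listed targets, 11 had 20 or more reads. With ratios scaled to all reads, 1 of them had an interval below 0 and 0 above, and the median log2 ratio was -0.0835 against -0.00635 over 9550 RefSeq genes. Scaled to RefSeq-class reads, these medians were 0.00203 for the targets and 0.0792 for all genes. Over those genes 5.95% had an interval below 0 and 6.21% above, so 1 of 11 is near that background.

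The gene below 0 was Runx1t1, a transcriptional corepressor reported as a target of miR-193b in mouse brown fat precursors. It had 38 reads in Ago2ADH and 83 in wild type, giving a log2 ratio of -1.02 (-1.61 to -0.45). Mcl1, an anti-apoptotic protein targeted by miR-193 in human cells, had 107 reads in Ago2ADH and 127 in wild type (-0.14, interval -0.52 to 0.24). Ccnd1, the cell cycle regulator cyclin D1, had 21 reads in Ago2ADH and 24 in wild type (-0.0835, interval -1.0009 to 0.82). Kit, the stem cell factor receptor of early blood cells, had 32 reads in Ago2ADH and 34 in wild type (0.02, interval -0.72 to 0.76). Stmn1, a microtubule regulator, had 31 reads in Ago2ADH and 21 in wild type (0.67, interval -0.17 to 1.54). Ywhaz at 0.09, Bcl2 at 0.15, Ets1 at -0.12, Esr1 at -0.19 and Slc7a5 at -0.13 also had intervals that held 0.

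Markers of other cells were read beside these results. Of 10 erythroid mRNAs, 7 had an interval below 0 and 1, the transferrin receptor Tfrc, above, with a median log2 ratio of -0.58. Of 8 hepatocyte mRNAs 5 were below and 2 above, with a median of -0.0806. These tallies hold for scaling to all reads, where 5.95% of 9550 RefSeq genes had an interval below 0 and 6.21% above. Intervals narrow with read number. Alb, with 36365 reads in Ago2ADH and 40362 in wild type, was thus counted as below at -0.0413. Scaled to RefSeq-class reads the hepatocyte median turned to 0.00492 and Alb to 0.0442 from a log2 ratio of -0.0413, while the erythroid median was -0.49. Of 6 white blood cell markers, 5 had reads and 1 of these, S100a9, was below. None of the 5 endothelial markers had an interval that excluded 0. Of 8 brown fat markers, Ucp1, Elovl3 and Plin1 were at 0 in both libraries, and the list summed to 13.9 RPM of all reads in Ago2ADH and 11.8 in wild type, most of them from Prdm16. Skeletal muscle markers summed to 2.13 RPM of all reads in Ago2ADH and 3.16 in wild type. The part of a change in cell types in the miR-193-3p ratio was not tested, and fewer cells of a type and less RNA per cell cannot be told apart in whole liver.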

How the data were processed

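Gel-selected small RNA of 1 Ago2ADH and 1 wild type library was adapter-ligated and, after RT-PCR, sequenced on the Illumina GA2, per the labels' protocols. The authors deposited raw read counts for 2344366 distinct sequences of 15 to 34 nt, each with a class, a name and the number of genome matches, per the file headers. No source used here names the aligner, the genome build or the trimming of adapters.

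miRNA reads were placed by exact match on 1174 GENCODE M21 hairpins (99.9% of reads in Ago2ADH and 99.8% in wild type) and summed by name and arm, the arm being set by the middle of the read against the middle of the hairpin. Levels have exact Poisson, shares exact Clopper-Pearson, ratios exact conditional binomial and odds ratios Woolf 95% intervals, all for counting error. With 1 library per genotype no p-value was computed. The 7 printed mature sequences and the hairpins were matched by symbol in the RefSeq table. Alternatives covered scaling, read length, genome matches, distinct sequences, added nucleotides and the limits of the size rule. TMM used edgeR 4.0.16 and folds RNAfold 2.7.2, with Python 3.11.15 and scipy 1.17.1 for the rest. The size rule was tested on simulated Poisson counts, which lack the spread between animals and from amplification.

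Members, lists and the rule for named genes were chosen with earlier results of these data known. The rule took every member arm, the 3 arms of nearest log2 ratio to each member arm with 100 or more reads, listed target mRNAs with 20 or more reads, miRNAs sharing a seed and neighbouring genes. Markers were named after their values were seen. A listed target that is part of the counts is not reported here by name.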

Additional observations from a re-analysis of the deposited data

Results flagged for a closer look

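Reads that begin with the first 18 bases of miR-193a-3p but end in bases the genome does not encode lie outside the miRNA class and are not in the levels and ratios above, which left out also those with 1 added nucleotide. There were 23 in Ago2ADH and 4 in wild type, a log2 ratio of 2.52 (95% interval 0.97 to 4.51). This count outside the main measurement was higher in Ago2ADH than in wild type. It belongs to the strand whose higher count was already known, and so adds no support. Added bases and sequencing errors were not told apart. Reads with such ends made up 15.97% of all reads with that beginning in Ago2ADH (10.4 to 23.0) and 13.3% in wild type (3.76 to 30.7). For miR-193b-3p such reads numbered 43 in Ago2ADH and 49 in wild type, for miR-193a-5p 15 in both, and for miR-365-3p 23 in Ago2ADH and 20 in wild type. These reads come from the same libraries as the counted ones and are no replicate of them.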

How the results depend on the processing

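Of 148 values under another setting, 128 kept their side of the limit or stayed within the main interval, and 0 reversed a call. For counts of called arms, staying within 1.5-fold of the main count was the criterion. Settings that change only the read minimum or the fold limit leave every ratio as it was, so those ratios could not move. Among the member arms only miR-193-3p had a call that could reverse. The uncalled miR-193b-3p ratio changed sign under 2 settings, to -0.0470 without the 10 most abundant arms and to -0.0887 with distinct sequences. Arms called higher numbered 13 with median-of-ratios or TMM scaling, 10 without the 10 most abundant arms in the total (5 lower), 12 with a minimum of 500 reads, 59 with a fold limit of 1.5 (13 lower) and 7 with a fold limit of 3, against 20 higher and 3 lower as reported. miR-193-3p lost its call, at 2.24, with a minimum of 500 reads, because it has 155. Counting distinct sequences leaves 15 arms with the minimum and 0 calls in either direction. There miR-193-3p was at 2.04, from 8 sequences in Ago2ADH and 2 in wild type, with an interval that held 0 (-0.29 to 5.31). miR-193-5p was at 0.037 (-1.70 to 1.78). The log2 odds of the 3p strand were 1.77 for miR-193 and 0.24 for miR-193b, with intervals that held 0. The 3p shares were 78.6% in Ago2ADH and 75% in wild type for miR-193b, and 62.5% in Ago2ADH and 50% in wild type for miR-365. With reads of 20 to 24 nt the log2 odds for miR-193b were 1.57, with an interval that held 0. miR-365-3p has no value with reads of 1 genome match, since its sequence matches at least 2 places. No paired analysis was possible because there is 1 library per genotype. Counts under 20 reads, as for miR-193b-5p and miR-365-1-5p, allow no statement on a difference.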
